A study of Mus musculus with 2 samples.

Results

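Mir107, Mir103-2 and Mir103-1 are the mouse microRNA (miRNA) genes that lie inside Pank1, Pank2 and Pank3. They were found by the rows of their Ensembl identifiers, and all 3 were measured among 1973 miRNA genes. The series held 1 group, small RNA libraries from the neural tube of B6NCrl mouse embryos at embryonic day 11.5, with 2 replicates. Each library came from a pool of male and female embryos, 109 embryos in replicate 1 and 88 in replicate 2, so neither differences between embryos nor between sexes can be read from them. The neural tube holds progenitors and young neurons with vessels and adjoining tissue, and in such bulk tissue fewer cells of a type and less RNA per cell cannot be told apart. There was no other stage, tissue or treatment, so the results describe how the 3 genes stood to each other, to other miRNA genes and between the libraries.

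The Pank genes encode pantothenate kinases, which carry out the rate-controlling step in the synthesis of coenzyme A, a carrier of acyl groups in lipid and energy metabolism. A miRNA is cut from a folded RNA hairpin that has a 5p arm and a 3p arm, and the 3p arm is the well-known product of these genes. A miRNA finds its target mRNAs mainly through the seed, bases 2 to 8 from its 5′ end. miR-103 and miR-107 are known in mice for lowering insulin sensitivity through caveolin-1, and in human cells for targeting Dicer, the enzyme that cuts miRNA hairpins.

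The mature sequences show how little separates the products, with the seed in capitals (RefSeq, GRCm38.p6, written 5′ to 3′).
miR-107-3p: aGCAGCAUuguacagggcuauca
miR-103-3p: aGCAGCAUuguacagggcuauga
miR-107-5p: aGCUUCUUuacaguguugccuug
miR-103-2-5p: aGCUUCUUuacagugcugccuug
miR-103-1-5p: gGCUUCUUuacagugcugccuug
Mir103-2 and Mir103-1 have the same 3p product. Going from miR-103-3p to miR-107-3p there was 1 substitution, G22C, counted from 1 at the 5′ end of the mature miRNA, so the seeds are the same. On the 5p side the substitution was A1G from miR-103-2-5p to miR-103-1-5p and C16U from miR-103-2-5p to miR-107-5p. Thus the 3p arms share 1 seed and the 5p arms another, and all these mature forms are 23 bases long.

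The hairpins are shown whole because the bases around the arms decide which reads can be told apart, with the mature arms in capitals.
Mir107: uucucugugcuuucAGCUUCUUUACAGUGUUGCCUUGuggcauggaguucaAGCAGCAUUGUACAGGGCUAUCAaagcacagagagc
Mir103-2: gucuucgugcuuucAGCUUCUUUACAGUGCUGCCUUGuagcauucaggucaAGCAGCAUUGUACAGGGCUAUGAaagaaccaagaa
Mir103-1: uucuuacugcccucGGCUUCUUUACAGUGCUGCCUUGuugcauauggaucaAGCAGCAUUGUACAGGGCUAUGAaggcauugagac
In each hairpin the 5p arm begins at base 15 and the 3p arm at base 52. By global alignment the hairpins of Mir107 and Mir103-2 were 83.9% identical, those of Mir107 and Mir103-1 80.9%, and those of Mir103-2 and Mir103-1 80.2%. The pair with the same 3p product was thus not the pair most alike over the whole hairpin. Mir103-2 and Mir103-1 shared an unbroken run of 27 bases, and Mir107 shared 24 bases with each of them. No other of the 2202 hairpins annotated in GENCODE M21 shared 20 bases with any of the 3.

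The genes sit at matching places in their hosts. Mir107 (ENSMUSG00000065594.1) lies at chr19:34820687-34820773 on the minus strand, Mir103-2 (ENSMUSG00000065563.1) at chr2:131288052-131288137 on the plus strand and Mir103-1 (ENSMUSG00000065553.1) at chr11:35782396-35782481 on the plus strand, in GRCm38, also called mm10. Each is on the host's own strand and in intron 5 of the 6 introns of the principal host transcript (GENCODE M21). Exons 2 to 6 have the same lengths in all 3 hosts, 353, 254, 177, 124 and 126 bases. The intron itself differs, with 7282 bases in Pank1, 5801 in Pank2 and 1740 in Pank3. The hairpin begins 326 bases after the preceding exon in Pank1, 454 in Pank2 and 688 in Pank3. Host mRNA was not measured in these libraries.

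**Figure D1:**
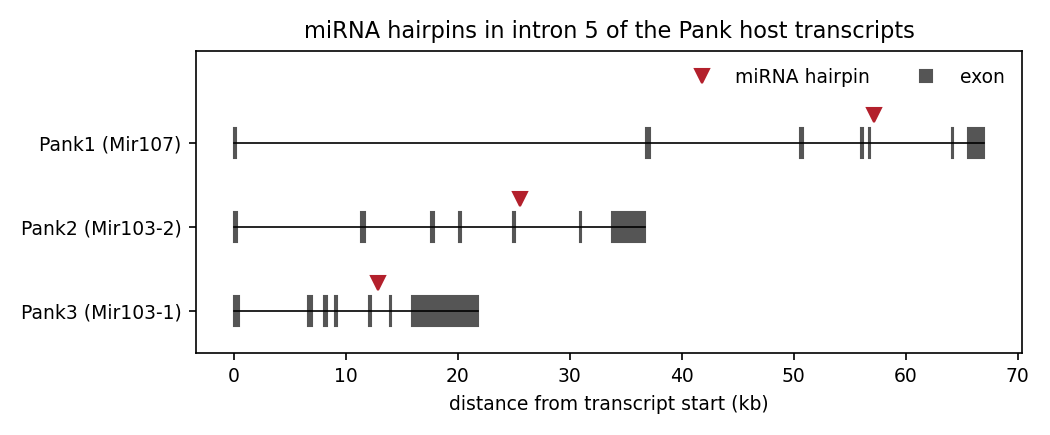
Exons (grey boxes) of the principal transcripts of Pank1, Pank2 and Pank3 by distance from the transcript start in kilobases, with the miRNA hairpin marked by a red triangle. Each hairpin sits in intron 5, soon after exon 5, and the intron is longest in Pank1 (7282 bases) and shortest in Pank3 (1740 bases).

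Mir107 held nearly all counts of the 3 genes, Mir103-2 a small share and Mir103-1 very few. Values are counts of reads on the gene's own strand and, per 1000000 such counts over all miRNA genes, CPM. They are per hairpin gene, with both arms together and not divided by length, and the hairpins are 87, 86 and 86 bases long. Mir107 had 4830 counts in replicate 1 and 4856 in replicate 2, or 1302 and 1197 CPM. Mir103-2 had 260 and 222 counts, or 70.1 and 54.7 CPM. Mir103-1 had 28 and 25 counts, or 7.55 and 6.16 CPM. The genes did not overlap in either library, and the order was the same in both.

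**Figure D2:**
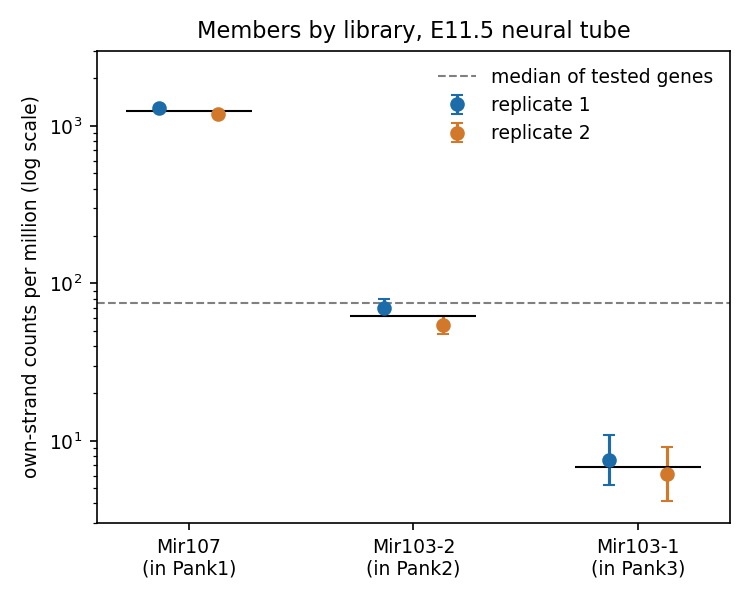
CPM of own-strand counts on a log axis for Mir107, Mir103-2 and Mir103-1 in each library, with 95% Wilson intervals (counting error only) as bars, the mean as a black line and the median of the 444 tested genes as a dashed line. Mir107 lies above that median in both libraries at 1302 and 1197 CPM, and Mir103-1 lies below it at 7.55 and 6.16 CPM.

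On average Mir107 reached 1250 ± 74.3 CPM, Mir103-2 62.4 ± 10.9 CPM and Mir103-1 6.86 ± 0.980 CPM (SD, n = 2 each). The 95% Wilson intervals of Mir103-1 ran from 5.22 to 10.9 CPM in replicate 1 and from 4.18 to 9.10 CPM in replicate 2. They lay far below those of Mir103-2, from 62.1 to 79.2 CPM and from 48.0 to 62.4 CPM. Mir107 exceeded Mir103-2 in counts 18.6-fold in replicate 1 (95% exact interval 16.4 to 21.1) and 21.9-fold in replicate 2 (19.1 to 25.1). It exceeded Mir103-1 172.5-fold (119.2 to 259.9) and 194-fold (131 to 300.5). Mir103-2 exceeded Mir103-1 9.29-fold (6.28 to 14.2) and 8.88-fold (5.86 to 14.0). Intervals cover counting error only, and with n = 2 no permutation test over samples can go below 0.5, so the order was not tested beyond holding in both libraries.

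As a share of the 3 genes' own counts, Mir107 took 94.8% ± 0.556, Mir103-2 4.72% ± 0.516 and Mir103-1 0.518% ± 0.0404 (SD, n = 2). Per library the share of Mir107 was 94.4% in replicate 1, with a 95% Wilson interval of 93.7 to 94.97, and 95.2% in replicate 2, with one of 94.5 to 95.7. The 2 copies of Mir103 together had 288 counts in replicate 1 and 247 in replicate 2, and Mir107 exceeded this sum 16.8-fold (14.9 to 19.0) and 19.7-fold (17.3 to 22.4). In the column read as the opposite strand, which the files do not name, all 3 genes had 0 counts in both libraries. For Mir107 this allows an opposite-strand share of up to 0.0621% in replicate 1 and 0.0618% in replicate 2, and for Mir103-1 of up to 10.7% and 12%.

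These levels cover only reads that could be given to 1 gene. Reads mapped to several places stood in a row of their own and were counted for no gene. They came to 2153217 in replicate 1 and 2088167 in replicate 2, which is 25.2% and 27.3% of all reads and 421 and 409 times the summed counts of the 3 genes. The full miR-103-3p sequence occurred in 2 annotated hairpins, Mir103-2 and Mir103-1. A read that starts with the 3p arm and is 21 bases or shorter matched all 3 hairpins exactly. At 22 bases such a read matched Mir107 alone, if it came from there, while one from Mir103-2 or Mir103-1 matched both copies up to 24 bases and 1 copy from 25 bases on. A read that starts with the 5p arm needed 16 bases or fewer to match 1 hairpin, but one that starts at the second base of that arm matched both Mir103-2 and Mir103-1 at 22 bases. These are exact matches among annotated hairpins, and no genome was searched. How far this moves with the low counts of Mir103-2 and Mir103-1 was not tested, and neither their 3p product nor miR-107 can be called the more abundant from these counts.

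**Figure D3:**
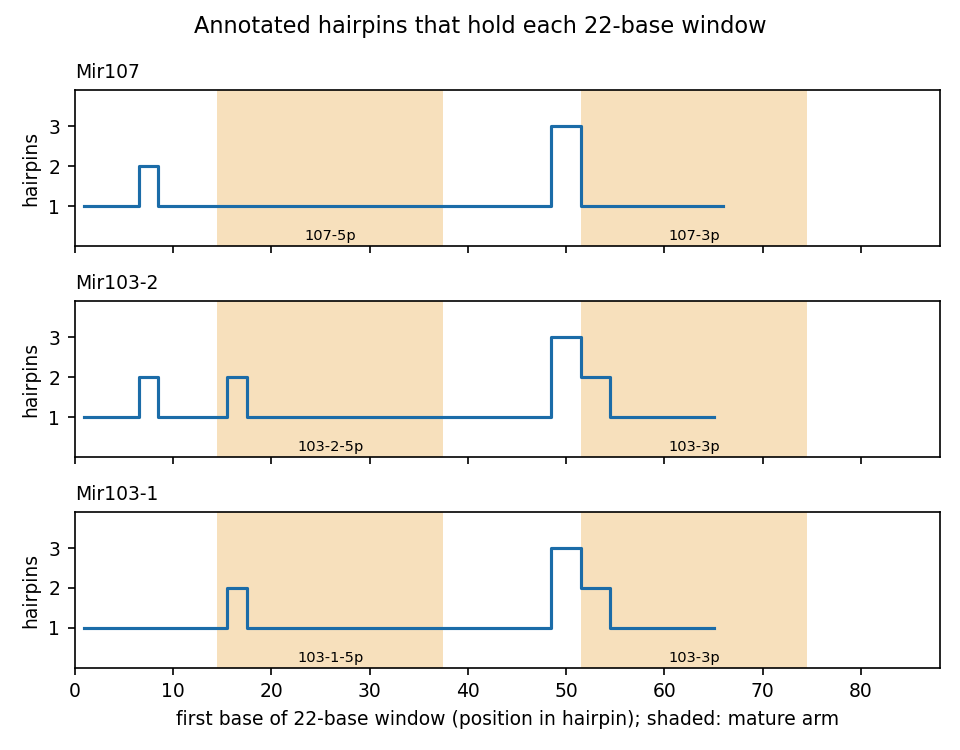
Number of annotated hairpins (of 2202) that hold each 22-base window of the Mir107, Mir103-2 and Mir103-1 hairpins exactly, by the first base of the window, with the mature arms shaded. Windows that begin with the 3p arm, at base 52, occur in 1 hairpin for Mir107 and in 2 for Mir103-2 and Mir103-1.

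Over the whole hairpin, 61 of 66 windows of 22 bases occurred in no other hairpin for Mir107, against 55 of 65 for Mir103-2 and 57 of 65 for Mir103-1. The windows found in all 3 hairpins were 3 in each and began at bases 49 to 51, just before the 3p arm. Those shared by Mir103-2 and Mir103-1 alone were 5 in each, 3 that began at bases 52 to 54 and 2 near the start of the 5p arm. The predicted folding energy (RNAfold, at 37 °C) was -41.2 kcal/mol for Mir107, -31.8 for Mir103-2 and -35.8 for Mir103-1, beside a median of -33.2 over all annotated hairpins. Hairpins differ in length, and per base the values were -0.474, -0.370 and -0.416 in the same order, beside a median of -0.369. Mir103-2 was thus close to the median per base. Mir103-1 was thus predicted to fold more stably than Mir103-2, and it had fewer counts. Whether folding bears on the counts, which leave out reads mapped to several places, was not tested.

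Set against other miRNA genes, Mir107 was among the more abundant ones. By mean CPM it ranked 84 of 1973, Mir103-2 ranked 232 and Mir103-1 ranked 332. Of the 444 genes with at least 10 counts over both libraries, 81.1% lay below Mir107, 47.7% below Mir103-2 and 25.2% below Mir103-1, and the median of these genes was 74.6 CPM. Among the 179 of them that lie in an intron of a protein-coding gene on the same strand, the ranks were 32, 75 and 119, and the median was 36.6 CPM. Mir103-2 thus lay above the median of intronic genes and just below that of all tested genes.

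The genes nearest in level were taken by distance of log2(CPM + 1) over the 2 libraries. For Mir107 they were Mir467e (distance 0.12, 1178 ± 75.4 CPM), Mir598 (0.18, 1155 ± 1.62 CPM) and Mir188 (0.20, 1376 ± 97.4 CPM), in introns of Sfmbt2, Xkr6 and Clcn5. For Mir103-2 they were Mir3099 (0.13, 62.1 ± 5.20 CPM), Mir31 (0.16, 57.5 ± 9.83 CPM) and Mir30c-1 (0.20, 69.0 ± 12.6 CPM). For Mir103-1 they were Mir879 (0.07, 6.87 ± 1.35 CPM), Mir1188 (0.19, 7.22 ± 0.0920 CPM) and Mir19b-2 (0.19, 7.63 ± 1.03 CPM). Mir467e, Mir30c-1 and Mir19b-2 have near-identical relatives and are uncertain as single genes. With 1 tissue and 2 libraries this likeness is one of level alone.

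The split between the copies of Mir103 was uneven but not unusual among genes with numbered copies. Mir103-2 held 90.3% of the counts of both copies in replicate 1 and 89.9% in replicate 2, with 95% Wilson intervals of 86.3 to 93.2 and 85.5 to 93.0. Across 28 families whose gene symbols carry copy numbers and that had at least 10 counts, the highest copy held between 58.1% and 100% of the family's counts, with a median of 79.7%. In 10 of these families the highest copy took a larger mean share than Mir103-2 did. Some of these shares rest on few counts. Mir297a, which sets the 100%, had 11 and 19 counts. Mir466b had 7 counts in each library, with 85.7% on its highest copy in replicate 1 and 100% in replicate 2. The families with most counts were Mir219a, where Mir219a-2 held 94.7%, Mir92, where Mir92-1 held 91.6%, Mir181a, where Mir181a-1 held 93.0%, and Mir181b, where Mir181b-2 held 98.0%. In 24 of the 28 families the copies had a mature sequence in common in the RefSeq table, as those of Mir103 do. For Mirlet7a the entries listed under the copies had none in common. The lookup went by gene symbol, so that does not show that their products differ. For Mir297a, Mir466b and Mir124a a copy had no mature entry under its symbol, so a shared sequence could not be looked up. The shares rest on reads that could be given to 1 copy, in each family.

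**Figure D4:**
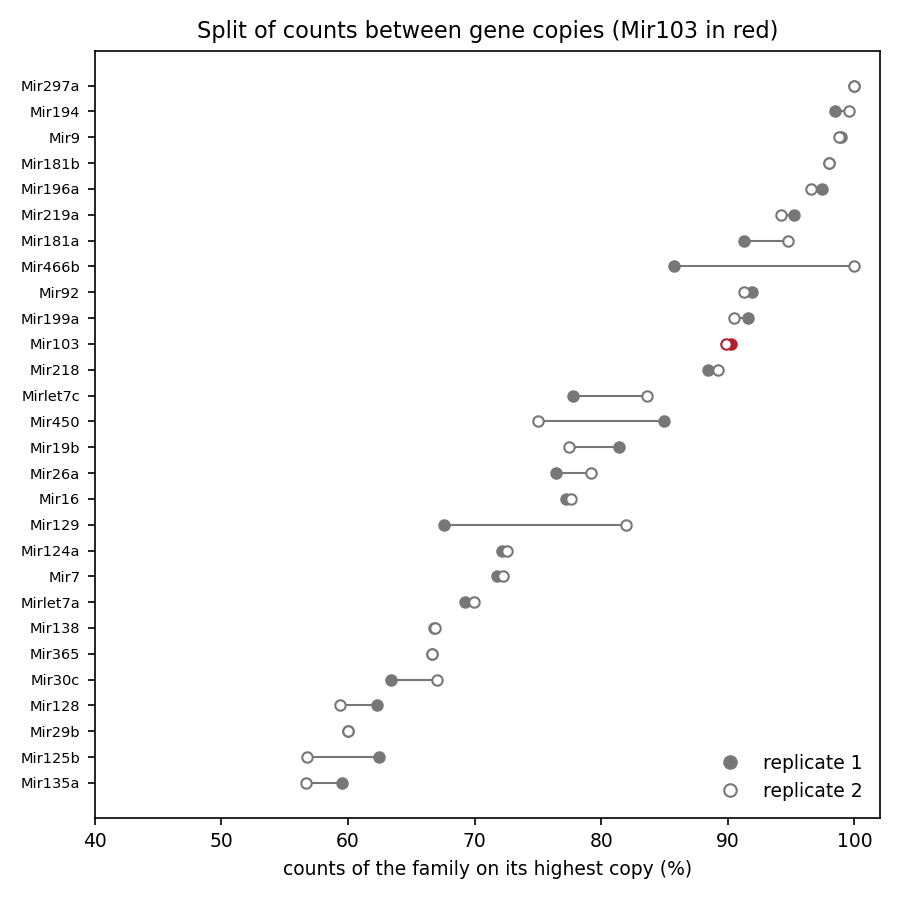
Share of a family's own-strand counts on its highest copy, in percent on an axis that starts at 40, for the 28 families of numbered copies with at least 10 counts, with filled points for replicate 1 and open points for replicate 2. Mir103 (red) lies at 90.3% and 89.9%, above the median family (79.7%) and below 10 others by mean share.

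The 3p arm ties the genes to the larger miR-15 and miR-107 group, whose members share the letters AGCAGC at or next to the 5′ end and are known for targeting cell cycle genes. The core is in capitals below for the members of highest count, to show that it starts at base 2 there and at base 1 in miR-103-3p and miR-107-3p.
miR-107-3p: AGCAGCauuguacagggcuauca
miR-322-5p: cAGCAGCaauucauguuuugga
miR-15a-5p: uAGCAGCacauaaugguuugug
miR-16-5p: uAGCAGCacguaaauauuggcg
miR-15b-5p: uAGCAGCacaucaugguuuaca
The seed of miR-107-3p at bases 2 to 8 was found in Mir107, Mir103-2 and Mir103-1 and in no other gene of the RefSeq miRNA table. With the core at base 1, 2 or 3 there were 15 genes.

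Of 14 gene symbols listed for this group, 12 had a row used here and 10 had at least 10 counts. They took 2.98% of own-strand counts in replicate 1 and 2.48% in replicate 2, with Wilson intervals of 2.96 to 2.99 and 2.47 to 2.50 and a mean of 2.73% ± 0.347 (SD, n = 2). Mir107 ranked 5 of these 10 in both libraries. Above it stood Mir322 (17026 ± 1957 CPM), which lies on the X chromosome, Mir15a (3952 ± 829 CPM), Mir16-1 (1941 ± 150 CPM) and Mir15b (1670 ± 233 CPM). Mir16-2 (566 ± 52.2 CPM), Mir503 (558 ± 184 CPM) and Mir195a (272 ± 21.2 CPM) stood between Mir107 and Mir103-2, and Mir103-2 and Mir103-1 were the lowest of the 10. These ranks rest on reads that could be given to 1 gene. They leave out any read that matched both copies of Mir103, as the full miR-103-3p does. The mature miR-16-5p is likewise listed with 1 sequence for both Mir16-1 and Mir16-2. Neither the ranks nor the group's share thus describe the mature products. The ranges of Mir16-2 and Mir503 over the libraries overlapped, and those of Mir16-1 and Mir15b met within 1 CPM, while Mir107 overlapped with neither neighbour. Without Mir322, the group's share was 1.03%. Mir497, listed also under the symbol Mir497a, had no row used here. The 949 and 945 reads in the column read as the opposite strand at Mir497b, where Mir497 lies, are left out. Mir497b was also listed, though it was not among the 15 genes found with the core.

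**Figure D5:**
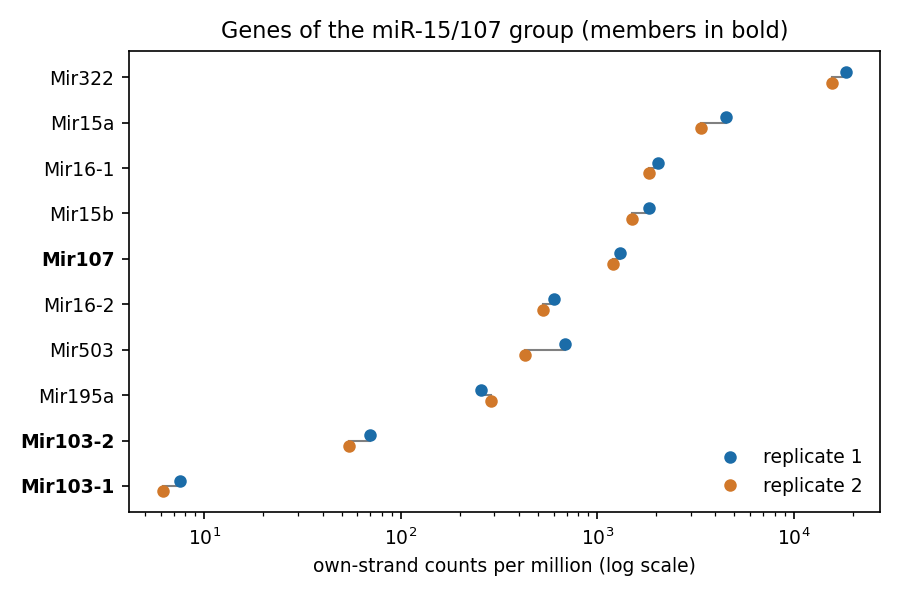
CPM of own-strand counts on a log axis for the 10 genes of the miR-15 and miR-107 group with at least 10 counts, with blue points for replicate 1 and orange points for replicate 2 and Mir107, Mir103-2 and Mir103-1 in bold. Mir322 leads at a mean of 17026 CPM, Mir107 ranks 5 at 1250 CPM, and Mir103-2 and Mir103-1 are lowest, by reads that could be given to 1 gene.

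Among the miRNA genes listed for other hosts of lipid or energy metabolism, only Mir33 could be set beside them. Mir378, listed also under the symbol Mir378a, had no row used here. Mir33 lies in an intron of Srebf2, which encodes a regulator of cholesterol synthesis, and is known for lowering cholesterol export from cells. Mir33 had 381 counts in replicate 1 and 286 in replicate 2, or 86.6 ± 22.8 CPM (SD, n = 2). It thus stood below Mir107 and above Mir103-2 in both libraries, though the range of Mir33 over the libraries, 70.5 to 102.7 CPM, came close to the upper value of Mir103-2.

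Between the libraries Mir107 differed little, while the ratios of Mir103-2 and Mir103-1 had wider intervals. Mir107 was 1.09-fold higher in replicate 1 than in replicate 2 (95% exact interval 1.05 to 1.13), or 0.12 on the log2 scale (exact binomial test with Benjamini-Hochberg adjustment, p = 9.70e-05). Mir103-2 was 1.28-fold higher in replicate 1 (1.07 to 1.54), or 0.36 on the log2 scale (exact binomial adjusted p = 0.0149). Mir103-1 had a ratio of 1.22 (0.689 to 2.19) and did not pass (exact binomial adjusted p = 0.619). Of all 444 genes tested, 53.2% were called, 45.3% as higher in replicate 1 and 7.88% as higher in replicate 2, so 2 calls among 3 genes are near that background.

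The direction for Mir107 rested on the scaling. The median log2 ratio of all tested genes was 0.27, and relative to it Mir107 lay at -0.15, Mir103-2 at 0.09 and Mir103-1 at 0.02. With TMM (a trimmed mean of log ratios) as the scaling, all log2 ratios moved by -0.29. Mir107 was then 1.12-fold higher in replicate 2 (log2 ratio -0.17, exact binomial adjusted p = 6.17e-08), Mir103-2 did not pass (log2 ratio 0.07, exact binomial adjusted p = 0.738) and Mir103-1 was at a log2 ratio of 0.0018 (exact binomial adjusted p = 1). By TMM 39.9% of the tested genes were called, 18.2% as higher in replicate 1 and 21.6% as higher in replicate 2. Of the 10 tested genes of the miR-15 and miR-107 group, 8 were higher in replicate 1, 1 (Mir195a) in replicate 2 and 1 did not pass with total-count scaling, against 2, 4 and 4 with TMM. Their median log2 ratio was 0.26, beside 0.27 for all tested genes, and with TMM -0.03 beside -0.02. These p-values set the libraries apart from counting noise alone and say nothing of conditions. Any reads copied by PCR, which the test takes for separate molecules, would make them too small, and such reads were not measured here.

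Own-strand counts on miRNA genes summed to 3708662 in replicate 1, out of 8530505 reads, and to 4055883 in replicate 2, out of 7655421 reads. A single count was worth 0.270 CPM in replicate 1 and 0.247 CPM in replicate 2, and a count of 0 allows up to 3 counts, or 0.809 and 0.740 CPM. Of the 10 measured neural genes listed as markers, none was at 0. Together they took 0.872% and 0.752% of counts, led by Mir92b (4979 ± 383 CPM) and Mir137 (1965 ± 289 CPM). The lowest were Mir124a-2 (10.5 ± 1.94 CPM), Mir124a-1 (2.46 ± 0.338 CPM), Mir9-2 (2.31 ± 0.218 CPM) and Mir124a-3 (1.56 ± 0.463 CPM). All of these but Mir124a-2 lay below the liver gene Mir122 (7.85 ± 0.0497 CPM). Mir9-2 and Mir9-3 had 2 mature sequences in common, and Mir128-1 and Mir128-2 had 1. For Mir124a this could not be looked up. Reads that matched several copies were counted for no gene, so these levels and shares do not rank the mature products. Markers of other cells were also present, from 2.36% ± 0.187 for the endothelial gene Mir126a to 0.000785% ± 4.97e-06 for the liver gene Mir122. Erythroid, myeloid, skeletal muscle and smooth muscle genes took 0.0444%, 0.0229%, 0.106% and 0.591% on average. Which cells the counts of Mir107, Mir103-2 and Mir103-1 came from was not tested.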

How the data were processed

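Small RNA below 30 nt was sequenced in 2 libraries of a single group. The authors deposited raw counts of reads for each miRNA gene, on mm10 with annotation M4, per the file headers. Aligner, counter and trimming: not given in the sources used here. Count columns (3 per file) carry no names. They were read as either, own and opposite strand from their layout and sums, and the own-strand one was used. Reads naming no gene (56.5% in replicate 1, 47.0% in replicate 2) stayed out of totals. Symbols, hosts and hairpins came from GENCODE M21 (GRCm38), matched for 1894 of 1973 identifiers, and mature sequences from RefSeq (GRCm38.p6). All 3 genes and their hairpins matched both. No genome was searched.

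Genes with at least 10 summed counts were compared between libraries with an exact binomial test (two-sided, library totals given), Benjamini-Hochberg adjusted and called below 0.05. A pseudocount of 0.5 was added for log2 ratios. With 1 group, no test between groups exists. Replicates are separate biosamples in the labels. The script of this test was checked on simulated Poisson counts. These had no spread beyond counting error, so the check does not show how the test behaves on these libraries. Wilson and exact intervals are at 95%. Genes, lists and the rule for named genes (the 3 genes, the 4 highest of each list, the 3 nearest in level) were chosen with earlier results of these data known. Tools were R 4.3.3, edgeR 4.0.16 (TMM), DESeq2 1.42.0 (size factors), Python 3.11.15, numpy 2.4.6, pandas 2.3.3, scipy 1.17.1 and RNAfold 2.7.2.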

Additional observations from a re-analysis of the deposited data

How the results depend on the processing

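Mir107, Mir103-2 and Mir103-1 stood in the same order in each library. Counts of either strand leave their ratios and shares as they are by construction, since none had an opposite-strand count, and with n = 2 a single library always lies within 1 SD of the mean, so neither setting bears on how stable these values are. The mean level depends on what it is divided by. Per 1000000 of all reads it was 600.3 for Mir107, 29.7 for Mir103-2 and 3.27 for Mir103-1. Without the 10 most abundant genes in the total it was 2922, 145 and 16.0 CPM. The log2 ratio of replicate 1 over replicate 2 for Mir107 turned to -0.17 with TMM, -0.15 with DESeq2's size factors, -0.086 with the total without the 10 most abundant genes and -0.16 with all reads as the total. For Mir103-2 it lost its call at 0.069, 0.088, 0.15 and 0.071 in the same order, with exact binomial adjusted p of 0.738, 0.666, 0.417 and 0.738. These scalings move every gene by the same amount. The count filters (none, or at least 100 summed counts) and counts of either strand left both calls and directions as they were, and Mir103-1 did not pass under any setting in which it was tested. The genes called numbered 236 with total-count scaling (201 higher in replicate 1, 35 in replicate 2) and from 177 to 245 under the alternatives, with 81 and 96 by TMM. The share of the miR-15 and miR-107 group was 1.03% without Mir322. Depth limits Mir103-1, whose 28 and 25 counts leave its ratio between libraries anywhere from 0.689 to 2.19.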

Other observations

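Across the tested genes, 395 had a mature sequence in the RefSeq table. Of these, 52, Mir103-2 and Mir103-1 among them, carried a mature sequence that also occurs in another annotated hairpin, and their median was 70.9 CPM. The 343 others, Mir107 among them, had a median of 87.7 CPM. The difference was not tested.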
